A study of Mus musculus with 23 samples.

Results

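Transcripts of 85 mouse chromatin modifier and remodeller genes were followed through 4 pluripotent cell states and embryonic fibroblasts. The set was defined by name: platform gene symbols that begin with Hdac, Sirt, Prmt, Setd, Kdm, Jmjd, Suv, Ehmt, Ezh, Cbx, Pcgf, Smarc or Chd followed by a digit, together with Eed and Suz12 and without Kdm5c, Kdm5d and Kdm6a. Of 11494 genes named on the array, 91 matched, and 85 of these had a brightest probe that was detected (detection p under 0.01) on 3 or more of the 23 arrays, a rule that 9843 of all named genes passed. The 6 that matched without passing were Hdac9, Hdac10, Jmjd4, Prmt8, Smarcc2 and Smarcd1. The set held 16 Kdm and Jmjd demethylases and relatives, 12 Smarc, 9 Chd, 9 Setd, 9 Polycomb Cbx and Pcgf, 8 Hdac, 7 Sirt, 6 Prmt, 5 genes of or acting on Polycomb repressive complex 2 (PRC2), 2 heterochromatin protein 1 genes and 2 Ehmt genes. Several well known relatives, among them Hdac1, Suv39h1 and Suv39h2, were not analysed here. Smarca5-ps is annotated as a pseudogene and shares sequence with Smarca5, so its signal is uncertain.

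The arrays compared cells null for Blimp1 (Prdm1), the transcriptional repressor that specifies primordial germ cells, with Blimp1 heterozygous cells, all labelled as being of a mixed C57Bl6/CBA/129 background. Embryonic stem cells (ESCs) of 3 heterozygous lines (PAN1, PUM3, CHE4) and 3 null lines (JAG1, JAG2, B12) were profiled in serum with LIF, as the study's methods describe the conventional culture, and again in 2i/LIF, in which MEK and glycogen synthase kinase 3 are inhibited. Epiblast stem cells (epiSCs) came from 3 heterozygous lines (BL3, BL4, BL7) and 2 null lines (BL2, BL6). Reverted ESCs (rESCs), made by moving epiSCs to LIF and serum, came from 2 heterozygous (BL3, BL7) and 3 null (J2.3, BL2, BL6) lines. A single array of wild-type mouse embryonic fibroblasts (MEF) completed the series. Each array is a separate line or culture and no line was measured again within a state, so p-values reflect the spread between lines. The epiSCs and rESCs were grown on fibroblast feeders, no array carries a wild-type pluripotent line, and the Blimp1 probe was not analysed here.

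Chromatin is opened and closed by enzymes that write or erase marks on histone tails and by ATP-driven machines that move nucleosomes. PRC2, with its subunits Ezh1 or Ezh2, Eed and Suz12, methylates histone H3 lysine 27, and the Cbx and Pcgf proteins belong to PRC1, which reads that mark or modifies histone H2A. Smarc proteins are largely subunits of the BAF complex, whose ATPase is either Smarca4 or Smarca2, and Chd proteins include the helicases of the NuRD complex. Pluripotent cells are known for a Cbx7-containing PRC1 and for a specialised BAF complex built on Smarca4.

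Between 12197 and 14599 probes were detected on an array, and between 69 and 80 of the 85 genes. Not every single marker followed the labels. The naive marker Gbx2 averaged 9.46 in epiSCs and 7.05 in serum, and the epiblast marker Nodal 9.41 and 9.54. The epiblast marker Gsc averaged 8.27 in epiSCs and 8.19 in 2i. By the median of each list, the naive markers, epiblast markers and core pluripotency factors followed the labels, with 1 departure. On the null BL6 epiSC array the median level of the naive markers was 9.04, within the serum range of 8.19 to 9.62. It was 4.72 to 6.43 on the other epiSC arrays. The J2.3 rESC array also lay apart for several genes. Without these 2 arrays the chromatin genes called numbered 29 in epiSCs against serum (27 with all arrays), 28 in rESCs against epiSCs (21), 1 in rESCs against serum (0) and 39 in epiSCs against 2i (38), in the comparisons described below at an adjusted p under 0.01 in limma. Levels below are log2 signals normalised over all 23 arrays, and changes are log2 differences fitted within the arrays of each comparison. The median SD between arrays of a state was 0.26 for the chromatin genes in serum (0.27 for all genes), 0.20 in 2i (0.22), 0.23 in epiSCs (0.23) and 0.24 in rESCs (0.27). The most variable genes were Kdm8 in serum (SD 0.79), Ezhip in 2i (0.90), Setd7 in epiSCs (1.09) and Eed in rESCs (1.16).

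The promoters of 4 genes that mark the main patterns are shown first. Smarca2, Smarca1 and Prmt2 were high in epiSCs, Prmt2 and Smarca1 were low in 2i, and Cbx7 was low in epiSCs. Each run covers 250 bases before and 50 bases after the RefSeq start (GRCm38.p6), read 5′ to 3′ on the gene's strand. The intervals are chr19:26604910-26605209 (plus strand) for Smarca2, chrX:47892564-47892863 (minus) for Smarca1, chr15:79932597-79932896 (minus) for Cbx7 and chr10:76237816-76238115 (minus) for Prmt2. Capitals mark every match, on either strand, to 1 of 8 motifs: GC box GGGCGG, Klf GGGNGTGG, Blimp1 AGNGAAAG, Esrrb AAGGTCA, Stat TTCNNNGAA, Tcf CTTTGA, E-box CACGTG and the Nrf1 palindrome.
Smarca2: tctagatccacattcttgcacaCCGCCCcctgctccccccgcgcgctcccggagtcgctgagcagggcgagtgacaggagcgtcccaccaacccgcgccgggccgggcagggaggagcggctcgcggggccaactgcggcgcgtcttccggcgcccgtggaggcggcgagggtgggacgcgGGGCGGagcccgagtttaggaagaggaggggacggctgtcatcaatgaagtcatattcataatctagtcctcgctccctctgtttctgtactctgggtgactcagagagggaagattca
Smarca1: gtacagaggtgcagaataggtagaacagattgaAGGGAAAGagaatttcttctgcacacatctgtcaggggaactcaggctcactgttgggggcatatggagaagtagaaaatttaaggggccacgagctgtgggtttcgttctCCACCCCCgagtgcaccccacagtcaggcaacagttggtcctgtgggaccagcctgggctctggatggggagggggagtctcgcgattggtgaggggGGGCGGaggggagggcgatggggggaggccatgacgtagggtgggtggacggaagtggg
Cbx7: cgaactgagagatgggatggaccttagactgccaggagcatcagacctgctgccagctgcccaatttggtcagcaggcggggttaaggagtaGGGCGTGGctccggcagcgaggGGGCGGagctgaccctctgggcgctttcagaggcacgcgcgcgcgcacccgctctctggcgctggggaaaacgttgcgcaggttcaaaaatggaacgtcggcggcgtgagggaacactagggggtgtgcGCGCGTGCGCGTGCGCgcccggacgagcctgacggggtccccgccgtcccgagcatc
Prmt2: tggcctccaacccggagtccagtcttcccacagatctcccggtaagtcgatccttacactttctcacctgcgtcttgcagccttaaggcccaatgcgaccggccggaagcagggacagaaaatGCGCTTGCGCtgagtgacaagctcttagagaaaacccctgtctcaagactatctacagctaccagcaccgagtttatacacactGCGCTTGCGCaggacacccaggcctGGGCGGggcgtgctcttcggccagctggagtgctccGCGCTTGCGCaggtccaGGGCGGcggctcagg
All 4 held a GC box, a motif in 35.7% of 32851 promoters of the same length and in 67.4% of the 92 promoters of the chromatin genes. Prmt2 held 3 Nrf1 matches and Cbx7 held 2 that overlap, whereas 4.6% of all promoters and 15.2% of those of the chromatin genes held any. Smarca1 alone of the 4 held the Blimp1 letters (in 8.63% of all promoters and 6.52% of those of the chromatin genes). Smarca1 and Cbx7 held the Klf letters (17.6% and 22.8%). The Smarca1 promoter carried 9 CpG dinucleotides, against 29 for Smarca2, 33 for Cbx7 and 20 for Prmt2. The median was 24 over the 92 promoters of the 71 chromatin genes with an entry and 7 over all promoters. A match is a description of letters and was not linked to any measurement here.

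The first comparison asked how the primed epiSC state differs from ESCs in serum. The largest rises were those of Smarce1, Smarca2 and Smarca1, and 5 Polycomb Cbx and Pcgf genes were among the falls. Of 79 chromatin genes tested, 13 rose and 14 fell in epiSCs at an adjusted p under 0.01 (limma, Benjamini-Hochberg over all probes tested), which is 34.2% called. Of all 8402 genes tested 39.4% were called (20.8% higher, 18.7% lower), so the share for the set was near and below the background. The median change was 0.02 against 0.03 over all genes. In bulk RNA, fewer cells of a type and less RNA per cell cannot be told apart.

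Smarca2, the alternative BAF ATPase, had levels of 8.58, 8.55 and 9.15 in the heterozygous and 8.66 and 7.96 in the null epiSCs. In serum ESCs it ran from 6.12 through a median of 6.24 to 6.47, and in rESCs it stood at 5.61 and 5.91 (heterozygous) and 6.90, 5.88 and 5.76 (null). Every epiSC array was therefore above every serum and rESC array, and the change against serum was 2.27 ± 0.17 (SE, adjusted p = 9.04e-07, 5 against 6 arrays). Smarce1, a DNA-binding BAF subunit, gained 2.59 ± 0.24 (adjusted p = 4.57e-06), from 6.17, 6.82 and 7.41 (lowest, median, highest) in serum to 9.26, 9.83, 9.61, 9.28 and 9.23 in epiSCs. A second Smarce1 probe gave 2.81. The X-linked Smarca1, an ISWI-type remodelling ATPase, rose by 1.68 ± 0.32 (adjusted p = 0.00074), although the PAN1 serum array at 7.06 lay above 1 epiSC array (BL6, 6.65). Smarcc1, a BAF core subunit, rose by 0.48 with an adjusted p of 0.0062, which reached 0.0143 to 0.0189 when any 1 of 6 arrays was left out (BL3, BL4 and BL2 epiSCs, and CHE4, JAG1 and JAG2 serum). Smarca4, the other BAF ATPase, changed by 0.09 with a 95% interval of -0.17 to 0.34. In all, 4 of 10 Smarc genes rose and none fell, 40% called beside the 39.4% of all genes, so the family total was near the background.

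Among demethylases and relatives, 4 of 16 rose and 3 fell, also near the background (43.8% called). Kdm6b, which removes methyl groups from H3 lysine 27, rose by 1.16 ± 0.14 (adjusted p = 3.14e-05), its 5 epiSC levels of 8.02 to 8.51 all above the serum maximum of 7.46. Jmjd8 rose by 1.5 and Kdm4b, an H3 lysine 9 demethylase, by 0.89. Kdm4c, a relative of Kdm4b, fell by 1.51 ± 0.16 (adjusted p = 9.65e-06), from 6.83, 6.97 and 7.20 in serum to 5.83, 5.53, 5.45, 5.52 and 4.88 in epiSCs. The H3 lysine 4 demethylase Kdm5b fell by 0.78 (adjusted p = 0.0039), a call that missed the threshold at 0.0104 to 0.012 without any 1 of the BL3, BL4, BL7 or BL2 epiSCs. Kdm1a, the LSD1 demethylase, changed by -0.03 (95% interval -0.26 to 0.20).

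No Polycomb Cbx or Pcgf gene rose and 5 of 8 fell, with a median change of -0.55, where 18.7% of all genes fell. Cbx7 fell by 1.15 ± 0.18 (adjusted p = 0.00021), from 7.20, 7.51 and 7.90 in serum to 6.32, 6.25, 5.94, 6.52 and 6.96, with no overlap between the states. Pcgf1, of a variant PRC1, fell by 0.87, and Pcgf5, Pcgf2 and Cbx6 by 0.67, 0.64 and 0.46. The Pcgf5 call was lost without the BL4 epiSC array (adjusted p = 0.011) and in the fit of all 22 pluripotent arrays (0.022). Of PRC2, Suz12 fell by 0.80 (adjusted p = 0.0032, and 0.0102 or 0.0101 without the BL4 or BL7 epiSCs), while the catalytic subunit Ezh2 changed by 0.05 (95% interval -0.22 to 0.32). Ezhip, an inhibitor of PRC2, fell by 1.41 and was detected on 1 of 5 epiSC arrays against 6 of 6 in serum. Eed differed by -1.05 with an adjusted p of 0.0544, its arrays spreading from 5.41 to 7.38, and passed without the PUM3 serum array (-1.36, adjusted p = 0.0065).

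In the other families single genes stood out. The H3 lysine 9 reader Cbx3 (HP1 gamma) rose by 0.93 ± 0.12 (adjusted p = 4.39e-05). Prmt2, an arginine methyltransferase, rose by 1.02 ± 0.17 (adjusted p = 0.0004), with a second probe at 1.17. Chd6 and Chd3 rose by 1.16 and 0.71, each detected on 2 of 6 serum arrays and on all 5 epiSC arrays. Setd6, a lysine methyltransferase that acts on RelA, fell by 1.35, the class IIa deacetylase Hdac4 by 0.85 and the NAD-dependent deacetylases Sirt1 and Sirt4 by 0.84 and 0.64. Hdac2 (0.37), Ehmt2 (-0.41), Setdb1 (-0.21), Prmt5 (-0.38), Chd1 (0.02) and Chd4 (0.33) did not pass. Without the BL6 epiSC array Ehmt2 (-0.51, adjusted p = 0.0033), Prmt5 (-0.46, 0.0058) and Ezh1 (-1.03, 0.0094) passed, and Ezh1 also passed without the B12 serum array (-1.06, 0.0024). Other probes of Chd4, Ehmt2, Chd2, Prmt3, Prmt6 and Prmt7 did pass, at 0.94, -0.48, -0.74, -1.17, 0.98 to 1.00 and -0.52.

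**Figure D1:**
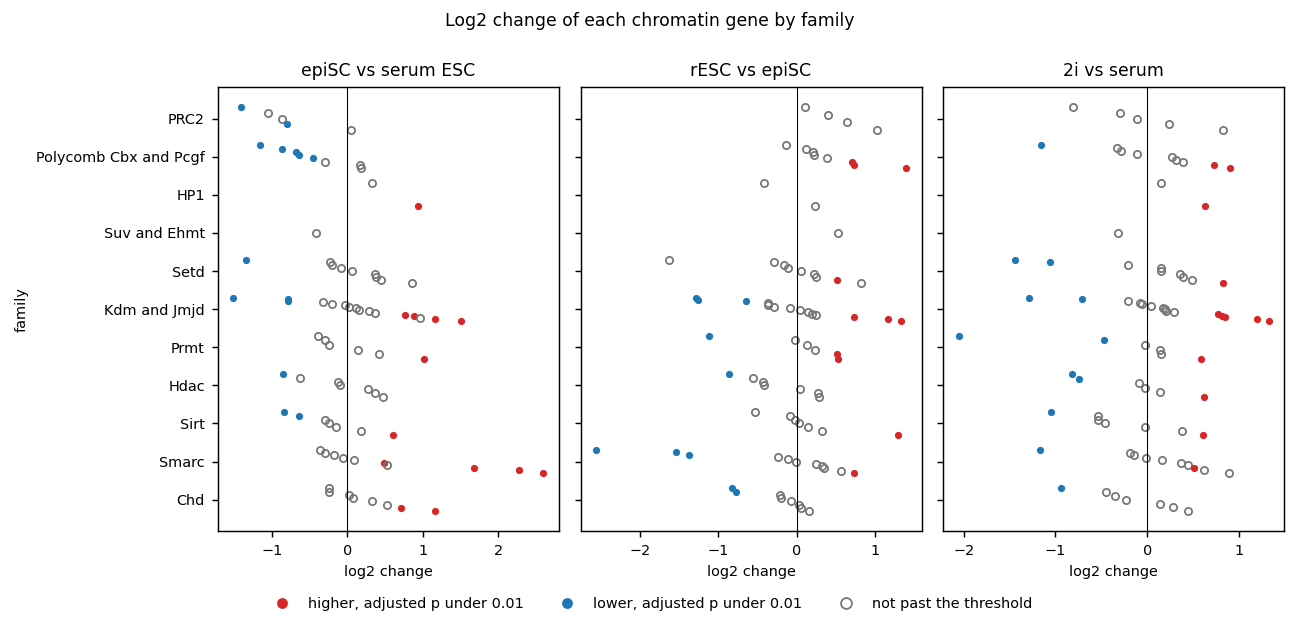
Log2 change (x axis) of each tested chromatin gene, grouped by family (y axis), for epiSCs against serum ESCs, rESCs against epiSCs and 2i against serum. Each point is 1 gene, filled where the adjusted p was under 0.01. In epiSCs, 5 filled points of the Polycomb Cbx and Pcgf family lie on the lower side and none on the higher side, where its 2 points are open.

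Reversion was examined by setting the 5 rESC arrays against the 5 epiSC arrays. The leading epiSC genes went the other way: of 77 tested, 11 rose and 10 fell, 27.3% beside 25.2% of all 8168 genes (10.8% higher, 14.4% lower). The epiSC arrays are shared with the comparison above, so the values below are not separate evidence. Smarca2 fell by 2.56 ± 0.26 (adjusted p = 3.48e-05), Smarce1 by 1.54 ± 0.17 (5.98e-05), Kdm6b by 1.28 ± 0.13 (3.97e-05) and Jmjd8 by 1.26 ± 0.13 (3.81e-05), all without overlap between the states. A second Kdm6b probe gave -0.38 and was not called (adjusted p = 0.116), although in epiSCs against serum it had risen by 0.73 (0.0041). Prmt2 fell by 1.11 (adjusted p = 0.0027), with the null J2.3 rESC array at 8.93, just above the lowest epiSC array (8.90). Smarca1 fell by 1.37, but its adjusted p of 0.0058 became 0.0185 with cell line as a replicate block over the 4 lines measured in both states. The same 4 lines without the block gave 0.0268. The adjusted p also lay above the threshold, at 0.0103 to 0.0175, without any 1 of the BL7, J2.3 or BL2 rESCs or the BL3, BL4 or BL7 epiSCs.

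Among the genes that rose on reversion, Cbx7 gained 1.39 ± 0.22 (adjusted p = 0.00049), to 7.97, 7.71, 7.19, 8.04 and 8.03. Kdm4c gained 1.33 ± 0.26 (0.0022), Sirt1 1.29 ± 0.20 (0.00054) and Kdm5b 1.17 ± 0.15 (0.00014). Each of these 4 had all rESC arrays above all epiSC arrays, which the rule for naming the largest rises required. Between these states 2240 of all 8168 genes did not overlap. Smarcad1, a remodeller that acts in heterochromatin and repair, gained 0.74. Pcgf2, Pcgf6, Kdm3a, Setdb1 and Prmt5 rose by 0.51 to 0.73 in the fit of all 10 arrays. For Pcgf6, Kdm3a, Setdb1 and Prmt5 the adjusted p was 0.0133, 0.0321, 0.0372 and 0.0215 with the replicate block over 4 lines, and 0.0127, 0.0192, 0.0256 and 0.0125 over the same lines without it, so these calls were lost with the smaller number of arrays either way. A second Kdm3a probe gave 0.45 and was not called (0.105), and another gave 0.99 (0.0011). Each of these 5 was also lost when single arrays were left out. For Pcgf2 they were the BL3, BL2 and BL6 rESCs and the BL3, BL4 and BL7 epiSCs (adjusted p 0.0102 to 0.013), for Pcgf6 the BL7, BL2 and BL6 rESCs and the same 3 epiSCs (0.0112 to 0.0139), and for Kdm3a the BL3 rESC and those 3 epiSCs (0.0105 to 0.0131). For Setdb1 they were the BL7, J2.3 and BL2 rESCs and the BL3, BL4, BL7 and BL2 epiSCs (0.0107 to 0.0197), and for Prmt5 the 4 rESCs other than J2.3 and the 4 epiSCs other than BL6 (0.0185 to 0.024). No PRC2 gene passed: Suz12 was 0.64 higher (adjusted p = 0.0169) and Eed 1.02 higher (0.175). With genotype as a covariate, which is unbalanced between these groups, Eed passed (1.34, adjusted p = 0.0089), and with all 22 pluripotent arrays fitted together Suz12 passed (0.65, 0.0029). Without the BL6 epiSC array Suz12 (0.78, adjusted p = 0.0023), Ezh1 (0.58, 0.0098) and Ehmt2 (0.62, 0.0059) passed.

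Whether rESCs and serum ESCs differ was then tested directly. None of 77 chromatin genes was called by limma at an adjusted p under 0.01, beside 0.196% of all 8148 genes. At an unadjusted p under 0.05 there were 20 chromatin genes of 77, beside 27% of all genes. The 4 that came under an adjusted p of 0.05 (beside 5.14% of all genes) were all higher in rESCs: Smarce1, Smarcc1, Prmt6 and Cbx3. Smarce1 was 1.07 higher (95% interval 0.50 to 1.64, adjusted p = 0.0374), its 5 rESC levels of 7.51 to 8.21 lying between the serum maximum of 7.41 and the epiSC minimum of 9.23. Smarcc1 was 0.75 higher (adjusted p = 0.036) and passed 0.01 without the J2.3 rESC array (0.90, adjusted p = 0.0064), and Cbx3 was 0.52 higher (0.0455) and passed without the B12 serum array (0.60, 0.0082). Of the other genes that led the epiSC changes, Smarca2 differed by -0.26 (95% interval -0.72 to 0.20), Cbx7 by 0.22 (-0.20 to 0.64), Kdm6b by -0.11 (-0.42 to 0.20) and Prmt2 by -0.11 (-0.64 to 0.43). These intervals include 0 and also differences of the order of 0.4 or more, so equal levels were not shown.

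**Figure D2:**
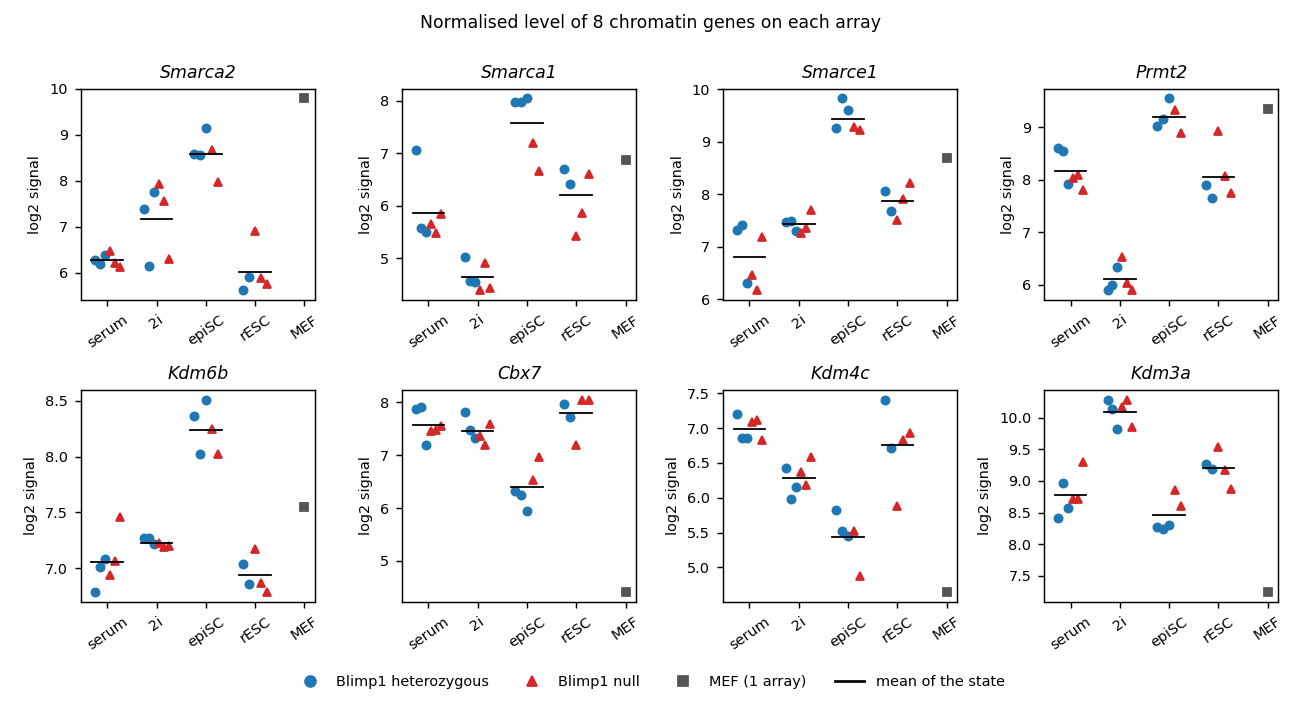
Normalised log2 signal (y axis) of 8 chromatin genes on each array, by state (x axis). Circles are Blimp1 heterozygous and triangles Blimp1 null arrays, the square is the MEF array and the bar is the mean of the state. Smarca2 in the 5 epiSCs lies between 7.96 and 9.15, and Prmt2 in the 6 arrays in 2i between 5.89 and 6.54.

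The same 6 ESC lines were also compared between 2i/LIF and serum. Kdm4c, Setd6, Pcgf5 and Hdac4 fell and Cbx3 and Jmjd6 rose here as in epiSCs against serum. Prmt2, Smarca1 and Kdm5b went opposite ways in these comparisons, which share the serum arrays. Of 77 tested, 13 rose and 12 fell in 2i, 32.5% beside 33% of all 7996 genes (16% higher, 17% lower). At an adjusted p under 0.05 the count was 42, beside 47.7%. Prmt2 fell furthest, by 2.05 ± 0.17 (adjusted p = 9.61e-07), from 7.80, 8.06 and 8.61 in serum to 5.89, 6.01 and 6.54 in 2i. The 2 conditions did not overlap, and a second probe gave -2.08. Smarca1 was detected on all 6 serum arrays and on none in 2i, so its fall is a bound of at least 1.66-fold. Sirt5, a mitochondrial desuccinylase, had the same pattern, at least 1.44-fold lower. Smarca1 and Sirt5 passed the detection filter through the serum arrays alone, so no p-value is given for them, though they are counted among the calls.

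Of 9 Setd genes 1 rose and 2 fell (33.3% called), and of 15 Kdm and Jmjd genes 5 rose and 2 fell (46.7%). Of all genes 33% were called (16% higher, 17% lower), so the Setd total was at the background. Setd7, an H3 lysine 4 monomethyltransferase, fell by 1.44 ± 0.29 and was detected on 1 of 6 arrays in 2i, while a second probe gave -0.47 and was not called (adjusted p = 0.103). Setd6 fell by 1.06 and Pcgf5 by 1.16. Kdm7a, a demethylase for H3 lysines 9 and 27, fell by 1.29 on its brightest probe, but a second probe changed by 0.56 in the opposite direction (adjusted p = 0.041), so no direction is given for the gene. Kdm4c fell by 0.71, Chd9 by 0.94 and the class IIa deacetylases Hdac4 and Hdac5 by 0.82 and 0.74.

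The genes that rose in 2i were led by Kdm3a, an H3 lysine 9 demethylase, at 1.33 ± 0.15 (adjusted p = 1.79e-05). Its levels ran from 8.41 through 8.72 to 9.30 in serum and from 9.82 through 10.15 to 10.28 in 2i, without overlap, and its other probes gave 1.73 and 1.27. Kdm8 rose by 1.19, Kdm2b, which brings a variant PRC1 to CpG islands, by 0.85, and Kdm5b by 0.77. Neither of 2 other Kdm5b probes was called, at 0.16 (adjusted p = 0.333) and 0.48 (0.0297). The PRC1 reader Cbx2 moved apart from Cbx7: it rose by 0.73 (adjusted p = 0.0013), while Cbx7 differed by -0.11 (adjusted p = 0.543). Cbx8 was detected on 6 of 6 arrays in 2i and 0 of 6 in serum (at least 1.41-fold higher). It passed the detection filter through the 2i arrays alone, so no p-value is given for it, though it is counted among the calls. The change of Cbx7 minus that of Cbx2 was -0.86 (adjusted exact permutation p = 0.0164, lines not kept as pairs). Hdac2 rose by 0.62 (adjusted p = 0.0065). With the cell line as a replicate block it stood at 0.0126, and without any 1 of PAN1, PUM3, CHE4, JAG1 or JAG2 in 2i, or PAN1 or JAG1 in serum, at 0.0105 to 0.017. Smarca2 was 0.90 higher with an adjusted p of 0.0172, which the replicate block brought to 0.0069, and its arrays split between 6.14 and 6.29 (PUM3 and B12) and 7.38 to 7.92 (the other 4). It also passed without the PUM3 (1.10, adjusted p = 0.0025) or B12 (1.07, 0.0047) array in 2i. Ezh1, at -0.81 with an adjusted p of 0.0203, passed without the B12 serum array (-1.0, 0.0019).

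Markers of other cells moved with the change of medium. The median level of 21 fibroblast genes was 5.84 to 6.40 in serum and 4.53 to 4.71 in 2i, with 14 to 17 of them detected per serum array and 2 to 6 in 2i. In 2i, 13 of the 21, among them Acta2, Dcn, Lox and Tnc, were detected on no array, against 4 in serum (Col1a2, Col3a1, Col5a2 and Pdgfrb). The medians were 5.4 to 6.30 in epiSCs, 5.63 to 7.24 in rESCs and 10.6 in MEF. Over 8 primitive endoderm genes the medians were 6.06 to 7.31 in serum and 4.61 to 5.18 in 2i. Prmt2 and Smarca1, both low in 2i, stood at 9.35 and 6.86 in MEF, and the part of other cells in their change was not tested.

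Direct comparison of epiSCs with ESCs in 2i gave the widest differences: 17 of 79 genes were higher and 21 lower in epiSCs, 48.1% beside 46.1% of all 8393 genes (24.8% higher, 21.3% lower). These arrays also entered the comparisons above. Prmt2 was 3.06 ± 0.15 higher in epiSCs (adjusted p = 5.64e-09), Smarca1 at least 5.41-fold higher and Smarce1 2.00 ± 0.13 higher (adjusted p = 6.58e-08). Jmjd8 was higher by 1.60, Hdac5 by 1.21, Smarca2 by 1.40 and Chd3 at least 1.54-fold. Smarca1 and Chd3 passed the detection filter through the epiSC arrays alone, so no p-value is given for them. On the other side, Eed was lower by 1.88 ± 0.36 (adjusted p = 0.00055), Kdm3a by 1.63 ± 0.14 (6.62e-07), Kdm5b by 1.54 ± 0.12 (3.1e-07), Cbx7 by 1.06 and Suz12 by 1.01. Of 9 Polycomb Cbx and Pcgf genes 6 were lower and none higher. Kdm7a, counted as higher, gave 1.57 on its brightest probe and -0.54 on another (adjusted p = 0.0106), so no direction is given for it. Smarcc1 was 0.33 higher on its brightest probe and -0.30 on another, so its direction is unsettled. Both Smarcc1 and Cbx2 (-0.55) were lost when single arrays were left out: for Smarcc1 the BL3, BL4 and BL2 epiSCs and each array in 2i except PUM3 (adjusted p 0.0116 to 0.0226), for Cbx2 the same 3 epiSCs and CHE4 and JAG1 in 2i (0.0102 to 0.0159).

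Paralogues, which can share a place in a complex or a substrate, were compared for the difference between their changes. For 12 of 19 pairs both genes were in the set, and 31 tests of the difference between their changes could be made over 4 comparisons, of which 21 passed (exact two-sided permutation test over arrays, adjusted over the 31, each gene by its brightest probe). The share for other pairs of genes was not computed, so the count describes these pairs and shows nothing particular to paralogues. In epiSCs against serum, the change of Smarca4 minus that of Smarca2 was -2.22 ± 0.20 (adjusted exact p = 0.0075), Cbx7 minus Cbx2 was -1.36 ± 0.19 (0.0075), Kdm4a minus Kdm4c 1.66 ± 0.24 (0.0075) and Kdm5a minus Kdm5b 0.95 ± 0.13 (0.0075). The raw exact p of these was 0.00216, the smallest that 5 against 6 arrays allow. Kdm4a lay near background, at 4.63 to 5.15 in serum and 4.53 to 5.44 in epiSCs, and was not detected on every array. A fall of Kdm4a could hardly have been seen, so that difference mostly restates the fall of Kdm4c. In 2i against serum, Kdm3a minus Kdm3b was 1.36 ± 0.23 and Kdm5a minus Kdm5b -0.96 ± 0.12, both with an adjusted exact p of 0.0075. The permutation took arrays as separate, although 2i and serum hold the same 6 lines and rESCs and epiSCs share 4. A version that kept lines as pairs was not run. Ezh2 minus Ezh1 was 0.93 ± 0.30 in epiSCs against serum (adjusted exact p = 0.0479) and 0.72 ± 0.31 in 2i (0.0613). None of 7 pairs passed between rESCs and serum ESCs, where the smallest adjusted exact p was 0.0579 for Kdm3a minus Kdm3b (0.67 ± 0.25).

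**Figure D3:**
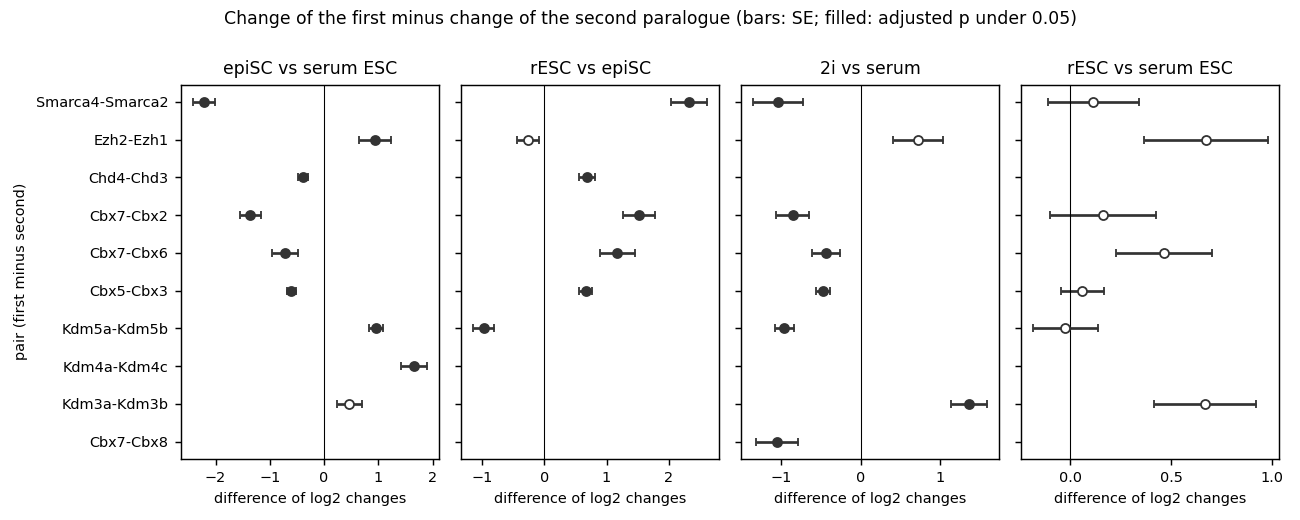
Difference between the log2 changes of 2 paralogues (x axis, first minus second named on the y axis) in 4 comparisons. Points are estimates, bars are SE, and filled points passed an adjusted exact p under 0.05. Smarca4 minus Smarca2 lies at -2.22 for epiSCs against serum ESCs and at 2.33 for rESCs against epiSCs.

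Loss of Blimp1 was tested within each state. No chromatin gene was called between null and heterozygous cells in serum (0 of 76), 2i (0 of 75) or rESCs (0 of 79), or over all 4 states together with line as a random block (0 of 77), by limma at an adjusted p under 0.01. The share of all genes called was 0% in each of these 4. At an unadjusted p under 0.05 the counts were 2, 2, 3 and 4 chromatin genes, against 4.66%, 5.45%, 4.13% and 6.97% of all genes. In epiSCs 1 of 79 was called, beside 0.329% of all genes, with 13 at an unadjusted p under 0.05, beside 14%. BL6, whose naive marker median (9.04) lay within the serum range, is 1 of the 2 null arrays in that comparison. The part of its marker state in the epiSC differences was not tested. Neither interaction of genotype with state called any (0 of 83 for rESCs against epiSCs, 0 of 82 for 2i against serum, beside 0% of all genes), with 1 and 0 at an unadjusted p under 0.05, beside 2.37% and 3.74%.

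The called gene was Eed, the PRC2 subunit that binds trimethylated H3 lysine 27. It stood at 7.18, 7.10 and 7.38 in the heterozygous epiSCs and at 5.41 (BL2) and 5.69 (BL6) in the null epiSCs, a difference of -1.63 ± 0.18 (adjusted p = 0.0093, 2 against 3 arrays). The call was lost without any 1 of the 5 arrays, at an adjusted p of 0.0415 without BL3, 0.0321 without BL4, 0.0225 without BL7, 0.0217 without BL2 and 0.105 without BL6, where the lone null array was assumed to vary like the heterozygous ones. It was also lost without background correction (0.0104). Smarca1 (-1.06, adjusted p = 0.0325) and Setd7 (-1.76, 0.0387) came under 0.05 only, making 3 chromatin genes at that threshold beside 2.8% of all genes. In rESCs Eed differed by -1.55 (unadjusted p = 0.0416, adjusted p = 1), with 8.20 on the null BL6 array between the heterozygous 8.87 and 8.12. In serum it was 0.67 higher in null cells (adjusted p = 0.91), and in 2i 0.33 lower (0.909).

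The arrays with low Eed included a heterozygous line. Its 5 lowest arrays of the 22 were BL2 and BL6 epiSC, PUM3 serum, and BL2 and J2.3 rESC, of which PUM3 is heterozygous and the other 4 are null. The deacetylases Hdac6 and Hdac2 and the actin histidine methyltransferase Setd3 shared that pattern: Setd3 and Hdac6 had the same 5 lowest arrays and Hdac2 had 4 of them. Setd3 stood at 4.52 on PUM3 serum, 4.95 and 4.8 on BL2 and BL6 epiSC and 4.86 and 4.91 on J2.3 and BL2 rESC, with 5.26 or more elsewhere. It was not detected on any of these 5 arrays (detection p 0.0171 to 0.279), so the order among them carries no information. Of the lines in this group measured in both states of a pair, BL2 was low for Eed in both, at 5.41 as epiSC and 6.20 as rESC. PUM3 stood at 6.08 in serum and 8.10 in 2i, and BL6 at 5.69 as epiSC and 8.20 as rESC. Over all 9843 genes, 242 (2.46%) had exactly these 5 arrays lowest and 3 had them highest. Of the 85 chromatin genes 4 (4.71%, Eed included) shared 4 or more of the 5, beside 5.17% of all genes. These arrays had 12197 to 13616 probes detected, against 12657 to 14599 on the other pluripotent arrays, and the part of array quality in the pattern was not tested. The arrays were picked from Eed's own values, so these counts describe the pattern and test nothing.

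**Figure D4:**
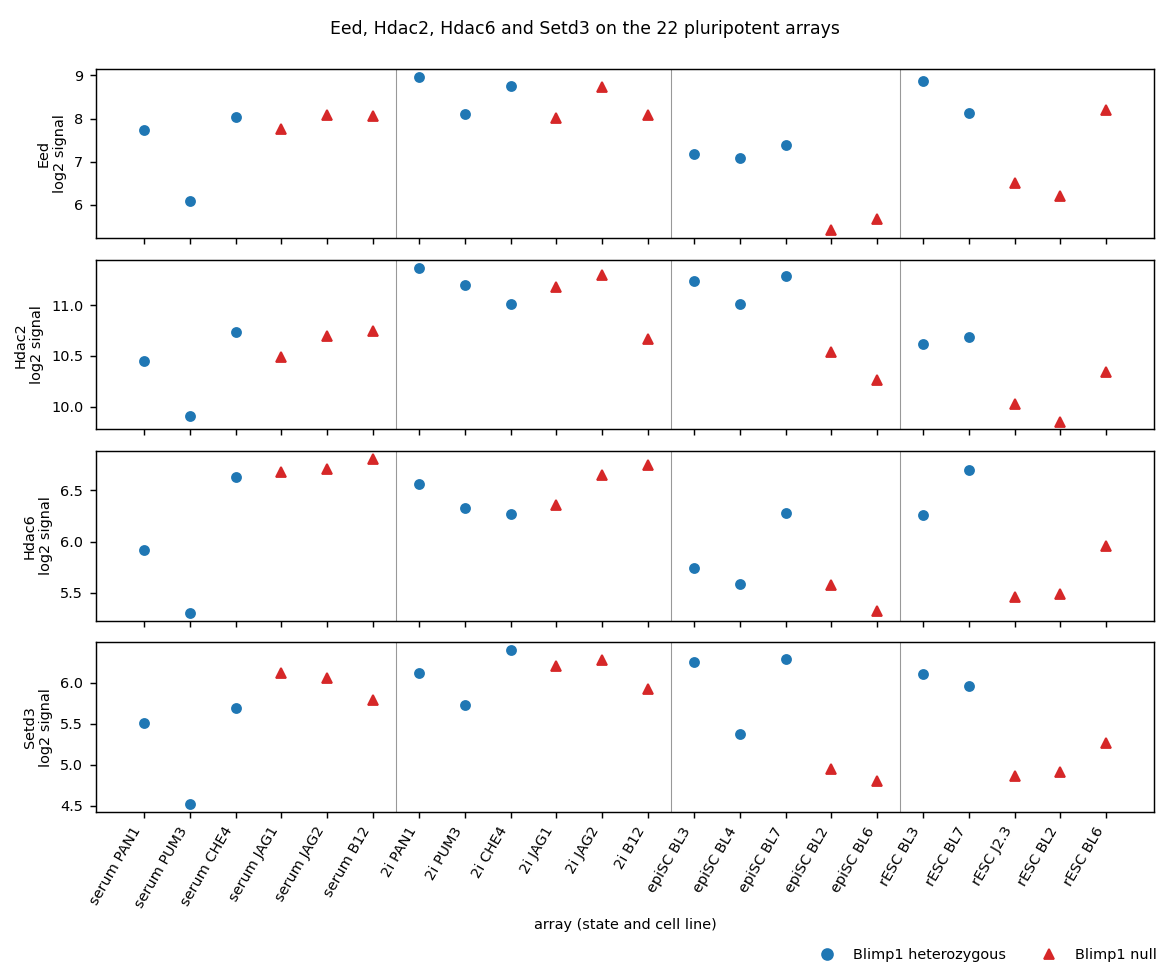
Normalised log2 signal (y axis) of Eed, Hdac2, Hdac6 and Setd3 on the 22 pluripotent arrays (x axis, state and line). Circles are Blimp1 heterozygous and triangles Blimp1 null arrays, and vertical lines part the states. PUM3 serum, BL2 and BL6 epiSC, and J2.3 and BL2 rESC are the 5 lowest arrays for Eed, Hdac6 and Setd3.

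The MEF array was set beside the 22 pluripotent arrays as a description, since a single array allows no test. The label gives the MEF a C57Bl6/CBA/129 background and the study's methods name MF1, so the strain is unsettled. All 21 fibroblast markers were detected on it, and none of 4 core pluripotency factors. Of the 85 chromatin genes, 8 (9.41%) lay above every pluripotent array and 24 (28.2%) below every one, beside 19.4% and 20.8% of all genes. Counting only levels more than 2-fold from the pluripotent median, 6 (7.06%) lay above and 15 (17.6%) below, beside 12.6% and 11.9%. The 6 include Hdac7, Chd3 and Smarcd3, whose pluripotent medians lay near background, so that count depends on the background level.

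Smarca2 was furthest above, at 9.79 against a pluripotent range of 5.61 to 9.15 (10.4-fold over the median). The class IIa deacetylase Hdac7 (5.08-fold), the NuRD helicase Chd3 (4.14-fold), Cbx6 (3.19-fold), the BAF subunit Smarcd3 (2.54-fold) and the tubulin deacetylase Sirt2 (2.20-fold) followed. Hdac7, Chd3 and Smarcd3 were detected on only 3, 9 and 6 of the pluripotent arrays. Their pluripotent medians (4.54, 5.03 and 4.67) lay near background and no bound was computed, so the size of these 3 folds is uncertain. Eed and Cbx7 were not detected in MEF and lay at least 6.99-fold and 4.70-fold below the pluripotent median. Smarcad1 was 5.55-fold lower, Pcgf6 of the germline-repressing PRC1.6 4.13-fold, Sirt1 3.58-fold, Kdm3a 3.55-fold, Prmt5 3.39-fold, Ezh2 3.29-fold, Suz12 3.21-fold and Smarcc1 2.85-fold. Kdm4c and Hdac6 were not detected either and were at least 2.41-fold and 2.06-fold lower.

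**Figure D5:**
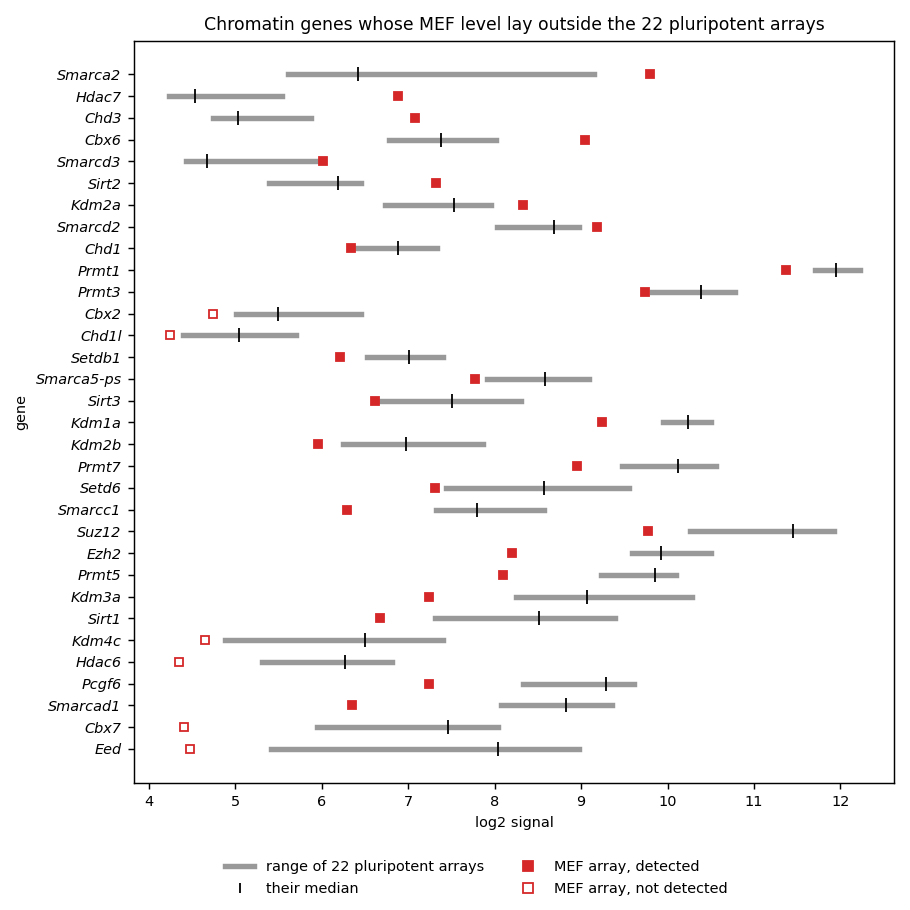
Chromatin genes (y axis) whose log2 signal (x axis) on the MEF array lay outside the 22 pluripotent arrays. Grey bars span the pluripotent range, ticks are the median, and red squares are the MEF array (open where not detected). From Smarca2 at 9.79 down, 8 genes lie above their range and 24 lie below it.

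Partners of the same complexes, taken from a separate list of genes outside the set, gave a parallel description. In epiSCs against serum 13 of 69 rose and 19 fell. Auts2 (2.73) and Ring1 (1.57) of PRC1, its subunit Phc2 (2.11) and the NuRD methyl-CpG binder Mbd2 (1.98) led the rises, and the NuRD subunit Mta3 (-1.95), the acetyltransferase Kat6b (-1.55), the COMPASS subunit Ash2l (-1.29) and Phc1 (-1.18) led the falls. In rESCs against epiSCs 16 of 67 rose and 10 fell, with Kat6b at 2.24 and Auts2 at -2.18, and between rESCs and serum ESCs none of 69 was called. In 2i against serum 11 of 68 rose, among them Auts2 (1.12), Wdr5 of COMPASS (1.09), the corepressor Rcor2 (0.99) and Kat6b (0.94), and 4 fell, led by Phc1 (-1.45). In epiSCs against 2i 11 of 68 were higher and 23 lower, with Kat6b at -2.48. The share of partners called was 46.4% in epiSCs against serum, 38.8% in rESCs against epiSCs, 22.1% in 2i against serum and 50% in epiSCs against 2i, beside 39.4%, 25.2%, 33% and 46.1% of all genes.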

How the data were processed

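RNA from 22 pluripotent cultures and 1 MEF culture was hybridised to Illumina Mouse WG-6 v2.0 arrays. The deposited scanner table holds probe intensities, not background-corrected or normalised, for 45281 probes, each deposited with a detection p-value that ranks it among the negative controls of its array (software not given in the sources used here). A second table holds log2 values of 20482 probes that the authors made with lumi (variance-stabilising transformation, then quantile normalisation), and it served as an alternative. All its columns have a median of 7.1. Of its probes 17604 carry 1 gene symbol, 8 several and 2870 none. Of the scanner table, 2 columns matched no sample here and were not used.

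Intensities were corrected and quantile normalised with neqc, background inferred from the detection p (limma 3.58.1, R 4.3.3, offset 16), over the arrays of each comparison for tests and over all 23 for levels. A gene was represented by its brightest probe. To be tested, a probe had to be detected (p under 0.01) on at least as many arrays of the comparison as its smallest group held. Differences were tested with limma (lmFit and eBayes) and Benjamini-Hochberg adjustment over all probes tested, calling an adjusted p under 0.01. Genotype over all states used cell line as a random block (statmod 1.5.0). A probe detected on no array of a group gave a bound: the brighter group's mean against, per array, the higher of the lowest signal among detected probes and the dim probe's own. Cell lines pair the arrays by label. Same-line correlations of deviations were 0.12 to 0.44 for 2i and serum, and 0.45, 0.26, 0.52 and -0.18 for BL3, BL7, BL2 and BL6 as rESCs and epiSCs. The limma steps were tested on simulated data with known changes. The precision is limited by the number of arrays.

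The members and all gene lists were chosen with earlier results of these data known. Named genes were the 8 largest rises and falls among called genes whose groups do not overlap, a fixed list of central chromatin genes and paralogues, every called gene and the 5 smallest p between genotypes, and the 8 genes farthest above and below in MEF. Lack of overlap in the largest rises and falls was therefore set by the choice. Of all genes, 2709 of 8402 did not overlap in epiSCs against serum, and 1917 of 7996 in 2i against serum. Genes named outside that rule were chosen after their values were seen. Alternatives were no background correction, the authors' table, no filter on dim probes, counting a gene by any of its probes, a threshold of 0.05, all 22 arrays together, the cell line as a replicate block, genotype as a covariate, omission of BL6 epiSCs and J2.3 rESCs, and omission of each array in turn. Promoters were matched by gene number to RefSeq (GRCm38.p6).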

Additional observations from a re-analysis of the deposited data

Results flagged for a closer look

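In 200 groups (50 chromatin genes named here in each of 4 states), 15 held an array whose gap to the others exceeded Dixon's 95% limit. Chance alone flags about 1 group in 20. The J2.3 rESC array accounted for 4: Smarca2 at 6.90 (others 5.61 to 5.91), Setd6 at 7.86 (8.84 to 9.02), Smarcc1 at 7.72 (8.38 to 8.57) and Prmt5 at 9.72 (9.95 to 10.03). On MEF these 4 genes stood at 9.79, 7.31, 6.29 and 8.10. The median of the fibroblast markers was 7.24 on J2.3 and 5.63 to 6.30 on the other rESC arrays. The part of fibroblasts in these levels was not tested. The PAN1 serum array accounted for 3: Smarca1 at 7.06 (5.48 to 5.84), Chd3 at 5.23 (4.93 to 5.03) and Kdm4a at 4.63, not detected there (4.99 to 5.15). On the PUM3 serum array Eed stood at 6.08 (7.73 to 8.08) and Hdac2 at 9.90 (10.4 to 10.7). On the B12 serum array Cbx3 stood at 9.67 (9.14 to 9.30) and Hdac5 at 6.80 (7.5 to 7.85).

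In 2i, Smarcd3 was high on PAN1 at 5.94 (4.44 to 4.96), Jmjd8 low on JAG2 at 5.6 (6.07 to 6.32) and Sirt5 low on JAG1 at 4.36, where it was not detected (4.55 to 4.64). In epiSCs Jmjd8 was high on BL4 at 8.0 (7.55 to 7.62).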

How the results depend on the processing

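Between rESCs and serum ESCs 0 chromatin genes were called in the fit reported, 4 at an adjusted p under 0.05, 6 with all 22 pluripotent arrays fitted together, 1 without the BL6 epiSCs and J2.3 rESCs, and 0 to 2 with single arrays left out (1 without J2.3 rESC, 2 without B12 serum). In 2i against serum 25 became 42 at 0.05. Between null and heterozygous epiSCs 1 became 0 without background correction, in the authors' table, without the filter on dim probes and with any single array left out, and 3 at 0.05. The causes were not tested. With single arrays left out the count ran from 19 to 30 for epiSCs against serum, 14 to 27 for rESCs against epiSCs, 20 to 30 for 2i against serum, 36 to 39 for epiSCs against 2i and 18 to 24 for the paralogue pairs. The replicate block (cell line) gave 25 calls in 2i against serum and 17 in rESCs against epiSCs, the latter on 4 lines that also gave 17 without the block. It changed no count past 1.5 times. Of 207 named gene results, each by its brightest probe, 82 were called, 67 of them under every alternative run per gene. Under at least 1 alternative 15 were lost and 26 others gained, and 0 reversed over 3639 alternatives. Other probes of a gene did not enter these counts, and the threshold of 0.05 could only add calls. On another probe Kdm7a and Prmt7 in 2i against serum, and Kdm7a and Smarcc1 in epiSCs against 2i, went the opposite way. For Prmt7 the brightest probe gave -0.47 and the other 0.14 (adjusted p = 0.507 in limma). Without the filter on dim probes Smarca2 in epiSCs against 2i had an adjusted p of 0.0129. Genes near background, such as Cbx8, Smarca1 in 2i, Chd3 and Kdm4a, have bounds or compressed changes.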
